A study of Mus musculus with 7 samples.

Results

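Macrophage marker transcripts were followed in EMT6 tumors through 10 of the 53465 genes counted in the study. The genes were chosen by name: Adgre1 and Cd68 as general macrophage markers, the receptors Mrc1, Cd163, Mgl2 and Folr2, the lipid-handling genes Trem2 and Apoe, and the secreted products Retnla and Chil3. All 10 were found in the table, and 9 of them passed the filter on low counts. Retnla did not pass it, because the filter was applied to the 6 primary tumors, where Retnla had 0 or 1 count.

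EMT6 cells come from a mammary carcinoma of the mouse. In the study, 500000 EMT6 cells were placed in the mammary fat pad of female BALB/c mice aged 6 to 8 weeks, and antibody was given at 250 μg per mouse every 3 days from day 1 until the endpoint. The 3 EMT6-P tumors received isotype control antibody and the 3 EMT6-PTR tumors, which the labels write as PDR, received an antibody that blocks PD-L1 and grew in spite of it. There was also 1 library of a metastasis from the resistant arm, whose source the labels give as breast tumor tissue and whose organ they do not name. All groups rest on 1 cell line in 1 mouse strain, and the labels number the replicates without tying each to a mouse, so that the p-values measure only the spread between these samples. The paper describes its replicates as technical where it does not state otherwise, and it does not call those of this sequencing biological. The replicates are called tumors below, but whether each came from a separate tumor is not given.

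Macrophages enter tumors from blood monocytes and from resident pools, and their state shifts with local signals. Interleukin 4 and interleukin 13, acting through the transcription factor STAT6, induce a so-called alternative program that includes the mannose receptor Mrc1, the galactose-binding lectin Mgl2, the small secreted protein Retnla (also called Fizz1 or RELMα) and the chitinase-like protein Chil3 (Ym1). Trem2 and Apoe mark macrophages that handle lipid, Folr2 marks a resident-like population, and Cd163 is a scavenger receptor for haemoglobin complexes. None of these genes is specific in all tissues. Chil3 and the Retnla relative Retnlg are also made by neutrophils, Chil3 and Apoe are expressed by lung macrophages, and Retnla by lung epithelium.

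Promoter sequences are shown for the 3 members on which the results below turn, namely Retnla and Chil3, which were high in the metastasis, and Mgl2, which was lower in every EMT6-PTR tumor than in any EMT6-P tumor. Each run holds the 250 bases before the RefSeq start on build GRCm38.p6, written 5′ to 3′ on the strand of the gene, and 9 of the 10 members had an entry. Capitals mark the motif named after each gene.
Retnla, chr16:48842359-48842608, plus strand, motif TTCNNNNGAA: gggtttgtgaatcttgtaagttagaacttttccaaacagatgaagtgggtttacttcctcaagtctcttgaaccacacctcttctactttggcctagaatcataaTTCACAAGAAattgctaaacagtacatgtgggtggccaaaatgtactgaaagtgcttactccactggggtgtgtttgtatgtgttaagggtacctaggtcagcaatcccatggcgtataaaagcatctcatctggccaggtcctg
Chil3, chr3:106167565-106167814, minus strand, motif TTCNNNGAA: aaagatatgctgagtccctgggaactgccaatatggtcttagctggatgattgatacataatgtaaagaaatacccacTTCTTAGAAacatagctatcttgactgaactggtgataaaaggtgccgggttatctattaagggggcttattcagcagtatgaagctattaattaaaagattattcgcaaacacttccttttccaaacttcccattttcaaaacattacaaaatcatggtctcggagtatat
Mgl2, chr11:70130107-70130356, plus strand, motif GAGGAA: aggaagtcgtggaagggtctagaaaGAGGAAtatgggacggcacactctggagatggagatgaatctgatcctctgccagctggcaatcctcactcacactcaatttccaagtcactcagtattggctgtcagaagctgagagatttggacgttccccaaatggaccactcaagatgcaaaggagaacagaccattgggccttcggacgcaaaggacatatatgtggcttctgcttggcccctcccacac

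TTCNNNNGAA is the spacing that STAT6 prefers and TTCNNNGAA the spacing of other STAT proteins. All motifs were searched on both strands, a GAGGAA can share its last 3 bases with either of these, and no member promoter held both spacings. TTCNNNNGAA stood in 5.85% of 32851 promoters of this length and, among the members, in that of Retnla alone. TTCNNNGAA stood in 7.02% of promoters and, among the members, in that of Chil3 alone. GAGGAA, the core bound by the myeloid factor PU.1, stood in 23.3% of promoters and in those of 6 members, which were Cd68, Mrc1, Mgl2, Trem2, Apoe and Retnla. The CCAAT/enhancer-binding protein spacing TTGCNNAA stood in 9.56% of promoters and in those of Cd68 and Retnla. These matches are letters in a window, and no binding was measured.

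Expression is given as CPM, the count of a gene scaled to a common library size by the upper-quartile factors of edgeR, from 20430110 to 25213472 estimated counts per library. For 15645 genes, the 3 EMT6-PTR were compared with the 3 EMT6-P tumors by the quasi-likelihood test of edgeR, and a gene was called when its p-value, adjusted over all of them by the Benjamini-Hochberg method, was under 0.05. None of the genes was called, 0.0% of those tested, and so none of the 9 members was. At an unadjusted p under 0.05 there were 1786 genes (11.4%), among them 1 member, Mgl2. DESeq2 called 138 genes higher and 143 lower in EMT6-PTR and limma-voom called none, and neither called a member. Chil3 had no adjusted p-value with DESeq2. The tumors were sequenced as whole tissue, in which fewer cells of a type and less RNA per cell cannot be told apart.

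Cd68, a lysosomal membrane protein of macrophages, did not separate the groups. Its level was 114.9, 112.0 and 97.1 CPM in EMT6-P replicates 1 to 3, and 90.5, 127.1 and 112.4 CPM in EMT6-PTR replicates 1 to 3. The log2 fold change was 0.026 ± 0.17 (SE, edgeR, n = 3 and 3, adjusted p = 0.957). Adgre1, which encodes the F4/80 antigen, stood at 53.7, 43.4 and 48.2 CPM in the EMT6-P tumors. In the EMT6-PTR tumors it was 70.2, 78.0 and 20.04 CPM, so that replicates 1 and 2 lay above every EMT6-P tumor and replicate 3 below every one. The log2 fold change was 0.21 ± 0.47 (SE, adjusted p = 0.866). The SD of Adgre1 was 5.18 CPM among EMT6-P and 31.5 CPM among EMT6-PTR tumors (n = 3 each).

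**Figure D1:**
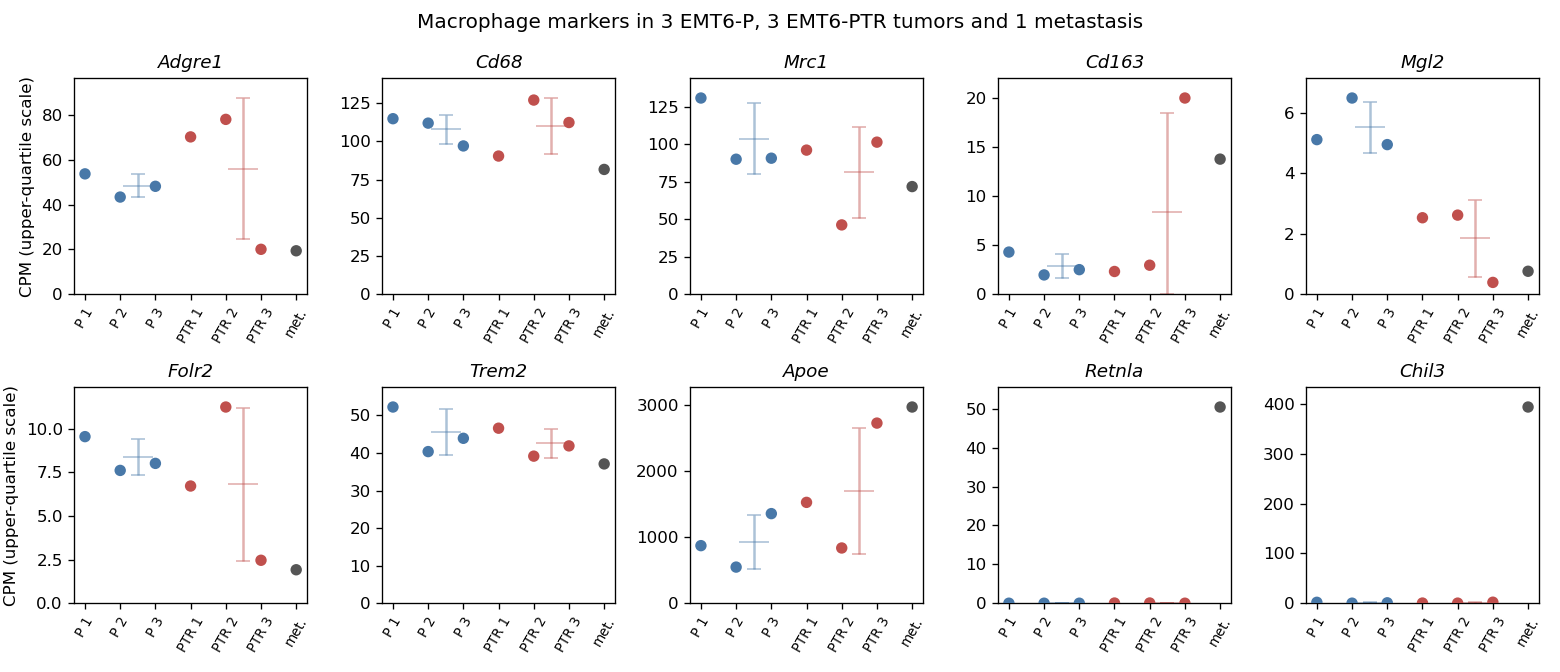
Level of each of the 10 macrophage markers in each library, in CPM on the upper-quartile scale (linear axes from 0). Blue points are EMT6-P tumors, red points EMT6-PTR tumors and the gray point the metastasis, and the bar beside each group is the mean ± SD of its 3 tumors, cut at 0. Mgl2 is lower in all 3 EMT6-PTR tumors, Adgre1, Cd163, Folr2 and Apoe are set apart in EMT6-PTR replicate 3, and Retnla and Chil3 stand at 50.5 and 393.6 CPM in the metastasis.

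Among the receptors, Mgl2 was the 1 member whose groups did not overlap. It measured 5.12, 6.49 and 4.95 CPM in EMT6-P replicates 1 to 3 and 2.53, 2.62 and 0.391 CPM in EMT6-PTR replicates 1 to 3. The mean was 5.52 ± 0.846 CPM in EMT6-P and 1.85 ± 1.26 CPM in EMT6-PTR tumors (SD, n = 3 each), with a log2 fold change of -1.59 ± 0.66 (SE) that did not pass the test (edgeR, adjusted p = 0.437, unadjusted p = 0.0493). Of all genes tested, 11.8% were lower in every EMT6-PTR than in every EMT6-P tumor and 9.52% were higher in every one, so that 1 member of 9 in the lower class is close to the background. Mgl2 was also the 1 member at least 2-fold lower, as were 1.29% of all genes. Its level rested on 105, 139 and 105 estimated counts in EMT6-P and on 57.9, 47.0 and 10.2 in EMT6-PTR tumors.

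The estimated counts of Mgl2 were fractional in all 7 libraries, because RSEM divides reads that fit several genes. Of the 2205 different runs of 50 bases in its annotated transcripts, 13.1% also occurred in another gene, most often in Clec10a, the neighboring lectin gene that encodes Mgl1. Clec10a stood at 2.73, 0.421 and 1.42 CPM in the EMT6-P tumors and at 1.53, 0.947 and 1.02 CPM in the EMT6-PTR tumors, with a log2 fold change of -0.38 ± 0.65 (SE, adjusted p = 0.823). Its groups overlapped, unlike those of Mgl2.

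Cd163 gave the largest positive log2 fold change of the members, and that value rested on 1 tumor. It measured 4.29, 1.96 and 2.50 CPM in EMT6-P replicates 1 to 3 and 2.31, 2.95 and 19.97 CPM in EMT6-PTR replicates 1 to 3. EMT6-PTR replicates 1 and 2 lay within the EMT6-P range, and replicate 3 was 6.84 times the EMT6-P mean. The log2 fold change was 1.53 ± 0.88 (SE, adjusted p = 0.515) with all tumors and -0.15 (adjusted p = 0.856) without EMT6-PTR replicate 3. Cd163 was the 1 member at least 2-fold higher, as were 6.27% of all genes.

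Mrc1, the mannose receptor CD206, did not separate the groups. Its level was 130.7, 89.9 and 90.6 CPM in EMT6-P and 96.0, 46.2 and 101.3 CPM in EMT6-PTR tumors, with a log2 fold change of -0.35 ± 0.33 (SE, adjusted p = 0.660). The low value was that of EMT6-PTR replicate 2, which is not the tumor that stood apart for Cd163 and Adgre1. Folr2, folate receptor beta, measured 9.55, 7.62 and 8.02 CPM in EMT6-P and 6.72, 11.2 and 2.46 CPM in EMT6-PTR tumors. Its EMT6-PTR tumors lay on both sides of the EMT6-P range, and its log2 fold change of -0.31 ± 0.51 (SE, adjusted p = 0.817) became 0.093 without EMT6-PTR replicate 3. Folr2 counts were also fractional in all libraries, although none of its 50-base runs occurred in another annotated gene.

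Of the lipid-handling members, Trem2, a receptor for lipids and lipoproteins, varied least of the members among EMT6-PTR tumors, though not among EMT6-P tumors. It measured 52.2, 40.4 and 43.9 CPM in EMT6-P and 46.6, 39.2 and 41.9 CPM in EMT6-PTR tumors, and its log2 fold change was -0.097 ± 0.15 (SE, adjusted p = 0.799). The highest EMT6-PTR value was only 1.19 times the lowest. Apoe, the apolipoprotein that carries lipid out of macrophages and is made by other cells as well, measured 869.9, 545.8 and 1354 CPM in EMT6-P and 1524, 834.6 and 2722 CPM in EMT6-PTR tumors. The groups overlapped, with EMT6-PTR replicate 2 inside the EMT6-P range and replicates 1 and 3 above it. The log2 fold change was 0.87 ± 0.50 (SE, adjusted p = 0.515), and it lay between 0.35 and 1.26 when any 1 tumor was left out.

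The secreted members were close to absent in the primary tumors. Retnla had 0 counts in every EMT6-P tumor and 1, 1 and 0 counts in EMT6-PTR replicates 1 to 3. A count of 0 still allows 3 counts, which is between 0.117 and 0.167 CPM in these 6 libraries and covers counting error only. Chil3 had 37, 2 and 17 counts in EMT6-P and 7, 3 and 52 in EMT6-PTR tumors, or 0.0934 to 1.80 CPM and 0.167 to 2.03 CPM. Its log2 fold change was -0.077 ± 1.16 (SE, adjusted p = 0.981) and ran from -1.87 to 0.91 when 1 tumor was left out, so that no direction could be given. The relatives Retnlb and Chil4 had 0 counts in all 6 primary tumors.

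**Figure D2:**
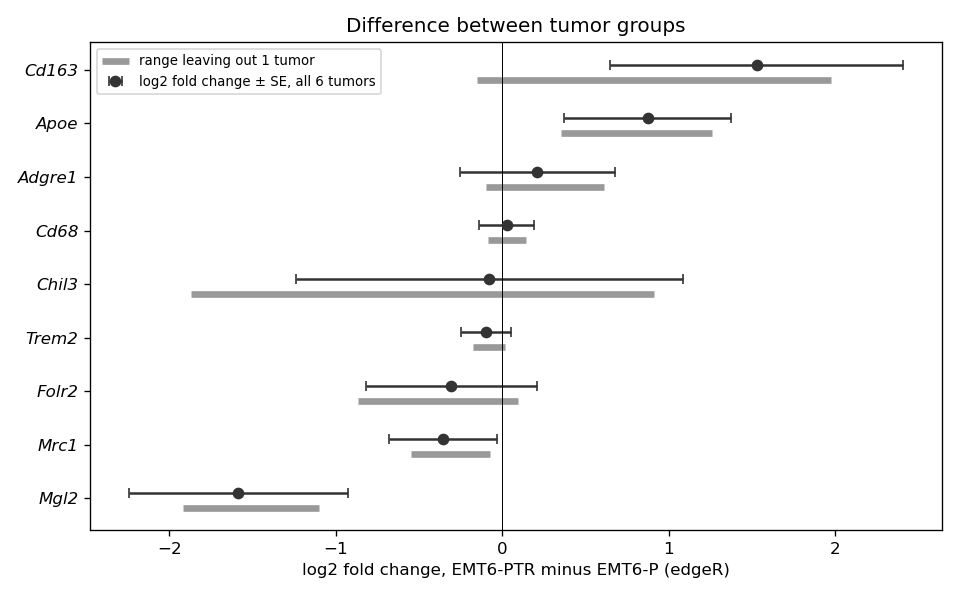
Log2 fold change of EMT6-PTR against EMT6-P for the 9 members tested (edgeR; black points ± SE, 3 against 3 tumors), with the range of the value when each tumor was left out in turn (gray bars). Mgl2 and Mrc1 stay below 0 and Apoe stays above 0 in every such fit, while the other 6 members reach both sides of 0.

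Over the 9 members tested, 4 log2 fold changes were above 0 and 5 below, with a median of -0.077 against 0.025 over all genes tested. To compare levels between genes, CPM was divided by the length of the merged exons in kilobases. This length merges all annotated transcripts, 4946 bases for Trem2, and can exceed that of the transcript expressed. The order between genes therefore holds for these lengths only. On that scale the mean in EMT6-P tumors ran from Apoe (431.9 ± 190.4 CPM per kb, SD, n = 3) and Cd68 (85.9 ± 7.62) to Mrc1 (16.3 ± 3.67), Adgre1 (14.9 ± 1.60), Trem2 (9.20 ± 1.23), Folr2 (5.43 ± 0.661) and Mgl2 (2.64 ± 0.404), and then to Chil3 (0.551 ± 0.526) and Cd163 (0.534 ± 0.223). Mrc1 could not be ordered against Adgre1, nor Chil3 against Cd163, because their ranges overlapped, and all other neighbors in this order did not overlap. In EMT6-PTR tumors Apoe (792.0 ± 446.6 CPM per kb) and Cd68 (87.5 ± 14.7) again led without overlap. Below them the order was not fixed, as the range of Adgre1 (6.19 to 24.1 CPM per kb) overlapped those of Mrc1 (7.25 to 15.9), Trem2 (7.92 to 9.42) and Folr2 (1.59 to 7.28), and the ranges of Cd163 (0.424 to 3.66), Mgl2 (0.187 to 1.25) and Chil3 (0.102 to 1.25) overlapped one another. Apoe made up 65.7% to 83.7% of the summed CPM per kb of the members in EMT6-P tumors and 72.3% to 91.0% in EMT6-PTR tumors.

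Setting each marker against Adgre1 in the same library asks how the other markers stood relative to 1 general marker. The log2 ratio of Mgl2 to Adgre1 was -3.37, -2.72 and -3.26 in EMT6-P and -4.75, -4.85 and -5.39 in EMT6-PTR tumors, so that all EMT6-PTR tumors lay lower. The mean ratio was -3.12 ± 0.35 against -4.99 ± 0.34 (SD, n = 3 each), beside an SD of 1.43 for the log2 CPM of Mgl2 itself in EMT6-PTR tumors. The SD of the Mgl2 ratio in EMT6-PTR tumors was 1.11 with Csf1r and 0.61 with Ptprc as reference. The log2 ratio of Folr2 to Adgre1 was -2.48, -2.50 and -2.57 in EMT6-P and -3.37, -2.78 and -2.98 in EMT6-PTR tumors, also without overlap. The mean ratio of Folr2 was -2.52 ± 0.05 against -3.04 ± 0.30.

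These were 2 of the 8 ratios, as Retnla had too few counts for one. Of all 15644 other genes tested, 4.24% had a ratio to Adgre1 that was lower in every EMT6-PTR than in every EMT6-P tumor. Against Csf1r, the receptor for the macrophage growth factor, Mgl2 still did not overlap and Folr2 did. Against Ptprc, the pan-leukocyte gene for CD45, both stayed apart. How many of all genes stayed apart against Csf1r or Ptprc was not computed. The ratio of Trem2 to Adgre1 was -0.040, -0.10 and -0.13 in the EMT6-P tumors, with Folr2 the tightest of the 8, but -0.59, -0.99 and 1.06 in the EMT6-PTR tumors. The ratio of Cd163 to Adgre1 was -3.62 to -4.40 in EMT6-P tumors, -4.87 and -4.68 in EMT6-PTR replicates 1 and 2, and -0.006 in replicate 3, where both genes had nearly the same CPM before division by length. Without EMT6-PTR replicate 3, 6 of the 8 ratios lay lower in EMT6-PTR than in EMT6-P tumors without overlap, which were those of Cd68, Mrc1, Cd163, Mgl2, Folr2 and Trem2. The same held for 68.9% of all genes tested, since Adgre1, the shared reference, was above every EMT6-P tumor in both remaining EMT6-PTR tumors, and the 6 ratios are therefore not particular to the markers. No test was made of the ratios.

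**Figure D3:**
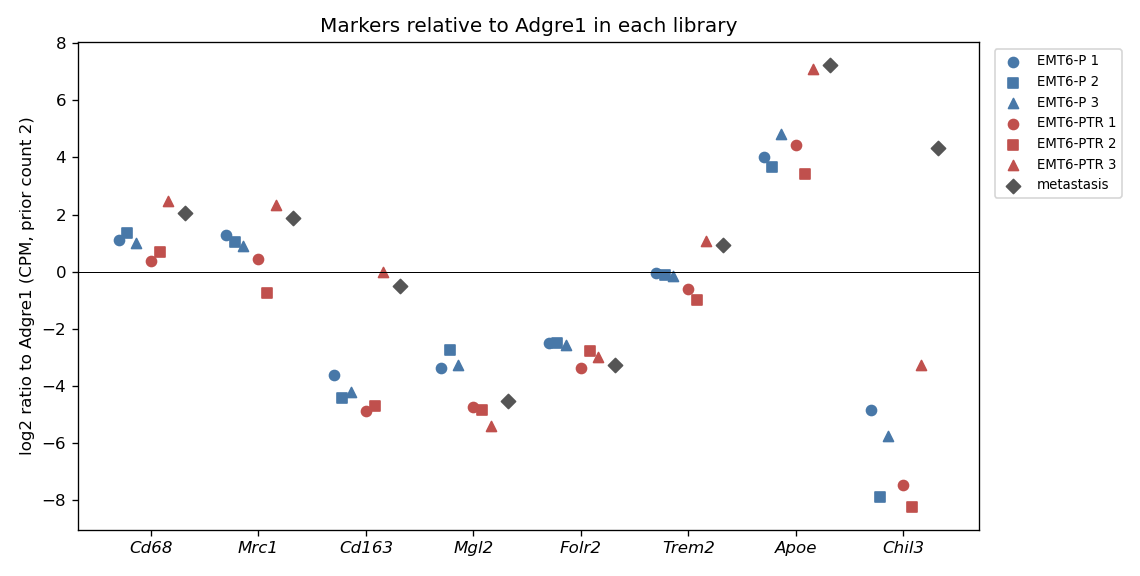
Log2 ratio of each marker to Adgre1 in each library (log2 CPM with a prior count of 2), EMT6-P in blue, EMT6-PTR in red and the metastasis as gray diamonds. Mgl2 and Folr2 lie lower in all 3 EMT6-PTR than in all 3 EMT6-P tumors. EMT6-PTR replicate 3 (red triangles) lies next to the metastasis and not next to the other EMT6-PTR tumors for Cd68, Mrc1, Cd163, Trem2 and Apoe. The shared reference Adgre1 is itself low in both libraries. In log2 CPM, Cd68, Mrc1 and Trem2 in that replicate differ from the EMT6-P mean by only 0.061, -0.012 and -0.111, so their place here follows the reference.

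In EMT6-PTR replicate 3 the difference in log2 CPM from the EMT6-P mean was -1.26 for Adgre1, -1.73 for Folr2 and -3.53 for Mgl2. It was 2.81 for Cd163, 1.66 for Apoe and 1.65 for Chil3, but only 0.061 for Cd68, -0.012 for Mrc1 and -0.111 for Trem2. How many of all genes differed as much in this tumor was not computed. The markers of other cells also differed in this tumor. The summed level of the 6 fibroblast genes was 16610 CPM there, against 3431 to 4697 CPM in EMT6-P and 4186 and 6223 CPM in the other EMT6-PTR tumors. Most of it was Col3a1, at 9088 CPM, and Dcn was 3345 CPM against 32.2 to 104.3 CPM in the other 5 primary tumors. Col1a1, at 2755 CPM, lay within the 2427 to 3708 CPM of those tumors, and every other gene of the list lay above them. The 6 carcinoma epithelial genes summed to 611.5 CPM there and to 2378 to 2728 CPM in the other 5 primary tumors. Epcam at 8.83 CPM and Krt5 at 1.13 CPM lay within the range of those tumors, and every other gene lay below it. The 4 leukocyte genes summed to 154.2 CPM there and to 273.0 to 316.7 CPM in the others. The part of these differences in the marker values was not tested.

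Among other genes that macrophages express, the general macrophage list had all 18 genes tested, with 6 log2 fold changes above 0, 12 below and a median of -0.073. Its smallest p-values were those of Fcer1g (-0.42 ± 0.14, SE, adjusted p = 0.427), Tyrobp (-0.47 ± 0.21, adjusted p = 0.454) and Mertk (0.93 ± 0.67, adjusted p = 0.584). Fcer1g and Tyrobp are signaling adaptors of myeloid receptors, and Fcer1g was lower in every EMT6-PTR than in every EMT6-P tumor. Csf1r itself differed by 0.038 ± 0.25 (adjusted p = 0.958). The list summed to 3149 to 3687 CPM in EMT6-P tumors and to 4268, 3328 and 2274 CPM in EMT6-PTR tumors.

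The resident list held 13 genes, all tested, with 7 above 0, 6 below and a median of 0.043. Pf4, a platelet and macrophage chemokine, had a log2 fold change of -1.91 ± 0.44 (SE, adjusted p = 0.421 with edgeR, 0.00545 with DESeq2), and Gas6, a ligand for the engulfment receptor Mertk, 0.96 ± 0.29 (adjusted p = 0.421). Pf4 was 38.1, 47.3 and 20.6 CPM in EMT6-P and 13.1, 9.91 and 5.16 CPM in EMT6-PTR tumors. Like Mgl2, it did not overlap between the groups. The complement genes C1qa, C1qb and C1qc, abundant in tissue macrophages, differed by -0.076 ± 0.15, -0.15 ± 0.16 and 0.043 ± 0.16 (SE).

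The lipid list held 13 tested genes, 4 above 0, 9 below and a median of -0.046. Its smallest p-values were those of the fatty acid carrier Fabp5 (-1.07 ± 0.38, SE, adjusted p = 0.427) and of the cholesterol exporter Abca1 (1.00 ± 0.40, adjusted p = 0.433), which loads cholesterol onto Apoe. Of the alternative activation list, 10 of 12 genes were tested, 5 above and 5 below 0, with a median of -0.038, and Arg1, the arginase of alternatively activated macrophages, differed by -0.57 ± 0.36 (adjusted p = 0.543). Of the classical activation list, 11 of 12 were tested, 8 above and 3 below 0, with a median of 0.16. Over its 12 genes the median difference in log2 CPM from the EMT6-P mean was 0.48, 0.91 and -1.99 in EMT6-PTR replicates 1 to 3. Nos2 differed by 1.75 ± 0.87 (adjusted p = 0.476). It was 34.7, 23.4 and 11.6 CPM in EMT6-P and 29.4, 182.1 and 22.2 CPM in EMT6-PTR tumors. Only EMT6-PTR replicate 2 lay above the EMT6-P range of Nos2. Of the cytokine and receptor list, 9 of 12 were tested, 3 above and 6 below 0, with a median of -0.20, and Il34, a second ligand of Csf1r, differed by -0.62 ± 0.27 (adjusted p = 0.448). Over all 19 lists, 135 of 171 other genes were tested. edgeR and limma-voom called none of them, DESeq2 called Pf4, Plin4 and Ager, and 12 had an unadjusted p under 0.05 with edgeR. DESeq2 gave no adjusted p-value for some of them, among them Vsig4, Cd3e and Dcn.

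Lists of other cells in the primary tumors were read from the same fit, with none of their genes called by edgeR. Mgl2 is also carried by a subset of dendritic cells, and of the 8 dendritic cell genes 6 were tested, 5 above 0 and 1 below, with a median log2 fold change of 0.34. Their sum was 32.6 to 45.2 CPM in EMT6-P tumors and 42.2, 83.9 and 18.01 CPM in EMT6-PTR replicates 1 to 3, and 22.6 to 68.5 CPM of it were Itgax in the tumors other than EMT6-PTR replicate 3, where Itgax was 5.31 CPM. The part of dendritic cells in the values of Mgl2 was not tested. The 5 monocyte genes had 4 values above 0, 1 below and a median of 0.32, the 4 leukocyte genes 1 above, 3 below and a median of -0.35, and the 7 neutrophil genes tested 3 above, 4 below and a median of -0.13. All 5 T cell genes tested were above 0, with a median of 0.78. The same held for all 6 fibroblast genes, with a median of 2.00, and all 7 skeletal muscle genes, with a median of 2.10. The T cell list of 6 genes summed to 5.28, 15.99 and 4.61 CPM in EMT6-PTR replicates 1 to 3. In EMT6-P tumors it summed to 3.27 to 4.92 CPM. The skeletal muscle sum was 4459 CPM in EMT6-PTR replicate 1 and 4.34 to 624.5 CPM in the other 5 primary tumors. The endothelial genes tested had a median of 0.14 and the carcinoma epithelial genes one of -0.42, and of the lung epithelium, adipocyte and alveolar macrophage lists only 3, 3 and 1 genes were tested.

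The metastasis was 1 library and was described by its values, set against the mean of the 3 EMT6-PTR tumors. Retnla and Chil3 were present there and nearly absent elsewhere. Retnla had 1263 counts and 50.5 CPM, at least 302.1-fold higher than any primary tumor if each of those is set to at least 3 counts. Chil3 had 9849 estimated counts and 393.6 CPM, 193.7 times the highest primary tumor. These were the 2 members at least 4-fold higher than the EMT6-PTR mean, as were 10.3% of the 19002 genes with at least 10 counts in a library. No member was at least 4-fold lower, as were 1.84% of those genes.

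**Figure D4:**
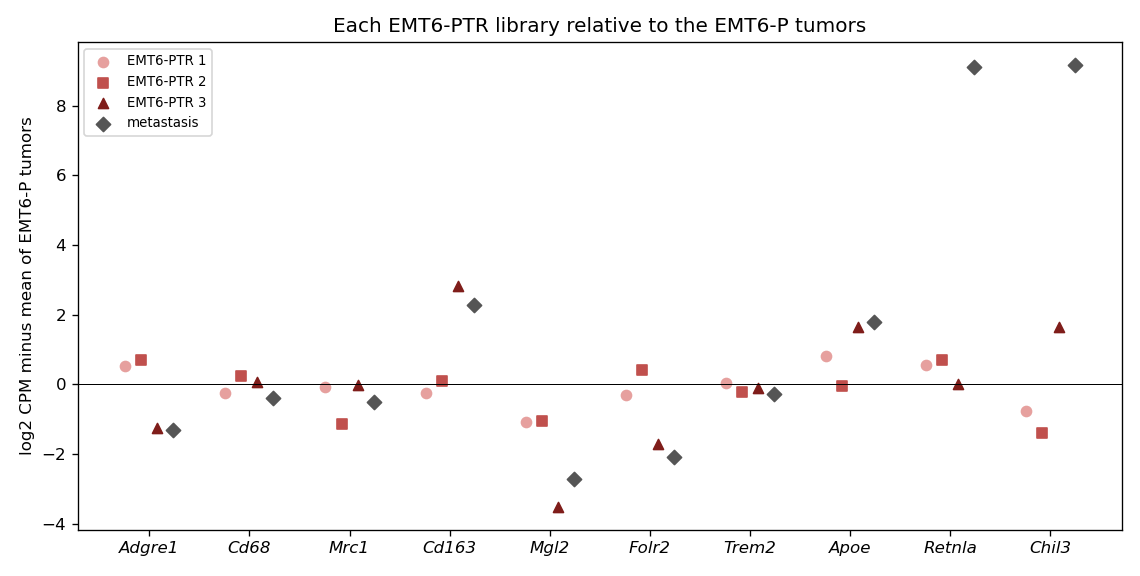
Difference in log2 CPM (prior count of 2) of each EMT6-PTR tumor and of the metastasis from the mean of the 3 EMT6-P tumors, for the 10 members. EMT6-PTR replicate 3 (dark triangles) and the metastasis (gray diamonds) lie close together for Adgre1, Cd163, Folr2 and Apoe, and the metastasis alone is about 9 above for Retnla and Chil3.

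For Adgre1, Folr2, Cd163, Apoe and Mgl2 the EMT6-PTR tumor nearest in level to the metastasis was replicate 3. How many of all genes were nearest to that tumor was not computed. Adgre1 was 19.4 CPM in the metastasis and 20.04 CPM in that tumor, Folr2 1.92 and 2.46 CPM, Cd163 13.8 and 19.97 CPM, and Apoe 2965 and 2722 CPM. Mgl2 was 0.759 CPM in the metastasis, within the EMT6-PTR range and below every EMT6-P tumor. Mrc1, Cd68 and Trem2 were nearer to another EMT6-PTR tumor than to replicate 3. Their log2 CPM in the metastasis still differed from replicate 3 by only -0.50, -0.46 and -0.18, against -0.54 for Cd163. Mrc1 at 71.7 CPM lay within the primary range, while Cd68 at 81.7 CPM and Trem2 at 37.1 CPM lay just below it. Over the 10 members, 3 were above all 6 primary tumors, 4 were below all of them and 3 were within their range. Of the 19002 genes with at least 10 counts in a library, 26.2% were above and 20.7% below all 6 primary tumors. Without EMT6-PTR replicate 3 in the reference, Cd163 (log2 difference 2.36) and Folr2 (-2.13) also differed at least 4-fold, besides the secreted pair. The share of all genes that did so with that reference was not computed.

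On the scale of CPM per kb, the order in the metastasis was Apoe (1387), Chil3 (241.2), Retnla (84.3), Cd68 (65.0), Mrc1 (11.2), Trem2 (7.50), Adgre1 (5.99), Cd163 (2.52), Folr2 (1.24) and Mgl2 (0.363). On that scale, which depends on the annotated lengths, the secreted pair stood above both general macrophage markers. Before division by length, Retnla at 50.5 CPM lay below Cd68 at 81.7 CPM. Of the 50-base runs of Chil3, 26.9% also occurred in another gene, most often in Chil4, which had 1 count in the metastasis. Retnla shared no run with another gene. Its relative Retnlg, a neutrophil granule product, had 478.0 CPM in the metastasis and 0.142 to 1.56 CPM in the primary tumors.

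Markers of other cell types moved with Retnla and Chil3 in that library. All 8 lung epithelium genes lay above every primary tumor, and their sum was 8766 CPM against 5.09 to 27.6 CPM, with the club cell product Scgb1a1 at 3007 CPM and the surfactant protein gene Sftpc at 2348 CPM. Of 11 neutrophil genes, 10 lay above every primary tumor, and their sum was 3324 CPM against 51.8 to 382.3 CPM, with S100a9 at 1545 CPM and Ngp at 116.9 CPM. Of 9 alveolar macrophage genes, 6 lay above every primary tumor, and their sum was 62.8 CPM against 1.05 to 3.35 CPM. Among them, Marco was 9.55 CPM in the metastasis and at 0 in all 6 primary tumors, Car4 was 38.4 CPM, Siglecf 0.839 CPM, and Ear10 was at 0 everywhere. The part of each of these cell types in the values of Retnla, Chil3 and Apoe was not tested.

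**Figure D5:**
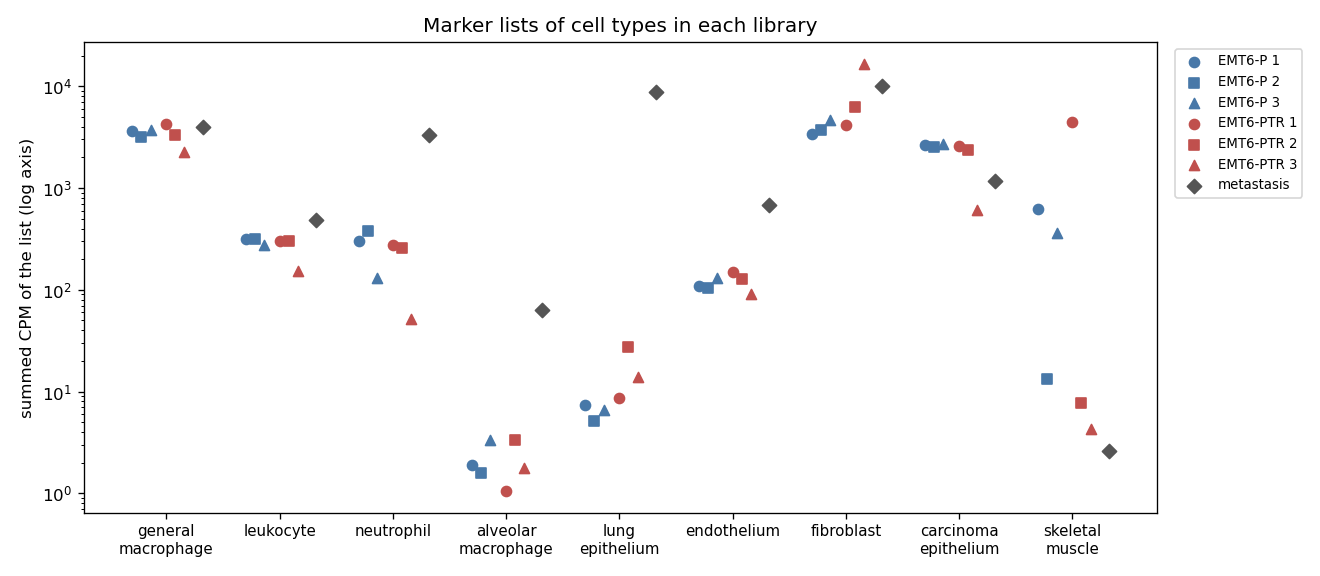
Summed CPM of 9 marker lists in each library (log axis), EMT6-P in blue, EMT6-PTR in red and the metastasis as gray diamonds. The metastasis stands above all primary tumors for lung epithelium, neutrophil, alveolar macrophage, endothelial and leukocyte genes, and EMT6-PTR replicate 1 stands apart for skeletal muscle genes. For fibroblast and carcinoma epithelial genes EMT6-PTR replicate 3 lies furthest from the other primary tumors. The metastasis, at 10140 and 1182 CPM, lies between it and them.

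Of the 18 general macrophage genes, 5 lay above and 4 below every primary tumor in the metastasis. Their sum was 3974 CPM, inside the primary range of 2274 to 4268 CPM, with Cd14 at 717.3 CPM above and Cx3cr1 at 18.9 CPM and Ms4a7 at 10.2 CPM below every primary tumor. Of the 13 resident genes, 4 lay above and 6 below every primary tumor. Lyve1 was 155.4 CPM against 2.66 to 8.91 CPM in the primary tumors and Cbr2 422.3 CPM against 42.6 to 69.8 CPM, while Timd4 at 0.0799 CPM, C1qa at 350.8 CPM and C1qb at 259.3 CPM were among those below. Lyve1 is also a marker of lymphatic vessels and Cbr2 of lung cells. Of the 12 alternative activation genes 9 and of the 12 classical activation genes 4 lay above every primary tumor, and none of either list lay below. The alternative activation chemokine gene Ccl17 was 15.4 CPM against 0.390 to 1.41 CPM, and the classical activation gene Il1b was 1259 CPM against 2.34 to 65.8 CPM. Of the 13 lipid genes, 4 lay above every primary tumor, among them Lpl at 238.1 CPM and Cd36 at 169.2 CPM, and 2 lay below, among them Spp1 at 1789 CPM against 2594 to 5316 CPM. The endothelial genes summed to 683.5 CPM against 91.6 to 149.1 CPM, and the leukocyte genes to 483.1 CPM against 154.2 to 316.7 CPM.

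The genes whose profile over the 7 libraries was nearest to that of a member were found by the root-mean-square (RMS) difference of log2 CPM, each centered on its own mean. For Mgl2 these were Stmn1 (RMS difference 0.25), Tk1 (0.31) and Mxd3 (0.33), against an RMS of 1.32 for the profile of Mgl2 itself. For Adgre1 they were Cep41, Gm20544 and Apol10b, at 0.15 to 0.17 against 0.74. For Folr2 they were Apol10a, Foxs1 and Hsph1, at 0.13 to 0.14 against 0.90. For Cd163 they were Gstm7, Per1 and Csad, at 0.23 to 0.26 against 1.21, and for Apoe 0610009L18Rik, Hoxa4 and Selenop, at 0.18 to 0.26 against 0.84. None of these 15 genes was in any of the lists. For Cd68, Trem2 and Mrc1, whose own profiles had an RMS of only 0.21, 0.15 and 0.43, the nearest genes were Nme7, Proser3 and Rrp8, then Zfat, Cep95 and Ints5, and then 6330403L08Rik, Cyb5rl and mt-Nd3.

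For Retnla, with a profile RMS of 3.13, the nearest of the tested genes were Chil1 (0.62), Lamp3 (0.83) and Gm13889 (0.88), and for Chil3, at 3.48, they were Scnn1a, Gm5483 and Gm13889, at 1.24 to 1.31. When all genes with at least 10 counts in a library were searched, a search added after the data were seen, the nearest to Retnla were Scgb3a2 (0.31), H3f3c (0.33) and Scnn1g (0.36), and the nearest to Chil3 were Stfa2, Mal2 and Olfm4, from 1.04 upward. These profiles are set by the 1 metastasis library, and the likeness is a description over 7 libraries.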

How the data were processed

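The authors sequenced RNA of 7 tissues, 3 of them EMT6-P tumors, 3 EMT6-PTR tumors and the last a metastasis, from stranded polyadenylated libraries. They checked reads with FastQC 0.11.5, aligned them with STAR 2.6.0a to GRCm38 (GENCODE M16) and estimated gene counts with RSEM 1.3.1. The deposited values are these estimated counts, not filtered or normalized, and totals ran from 20430110 to 25213472 per library. RSEM divides reads that fit several genes, so that members with a near copy are uncertain. At this depth a count of 0 allows up to 3 counts, which covers counting error only. Gene symbols came from the GENCODE M21 annotation of the same build by identifier (53274 of 53465 matched), and exon lengths are the union over all annotated transcripts.

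After rounding and filterByExpr on the 6 primary tumors, upper-quartile factors were set and glmQLFit and glmQLFTest of edgeR 4.0.16 (R 4.3.3) were run, with Benjamini-Hochberg adjustment over all genes and a threshold of 0.05. The SE is the log2 fold change divided by the square root of F. Log2 CPM used a prior count of 2. The metastasis was not in the fit. The fits were tested on simulated data. The alternatives were TMM, DESeq2 1.42.0, limma-voom (limma 3.58.1), the metastasis added as a group of its own, no filter, a minimum of 10 counts in each sample, the replicate number as a block, removal before scaling of CT010467.1, a gene that held 13.8% of the counts of EMT6-PTR replicate 2 and 0.433% to 1.35% of the others, and leaving out each tumor. For ratios they were Csf1r or Ptprc as reference and a prior count of 0.5.

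The members and the 19 other gene lists were chosen with earlier results of these data known. Named genes were all members and, of each list, up to 3 genes with the smallest p-values and up to 3 with the largest difference in the metastasis among genes with at least 10 counts in a library, together with near copies of members, the 3 tested genes nearest in profile to each member, and Csf1r and Ptprc. The genes C1qa, C1qb, C1qc, Itgax and Siglecf and the near-zero Ear10 were added after their values were seen. Promoters were the RefSeq table of GRCm38.p6. Tables were made with pandas 2.3.3 in Python 3.11.15 and plots with matplotlib 3.10.9.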

Additional observations from a re-analysis of the deposited data

Results flagged for a closer look

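Retnla and Chil3 were picked out because their level in the metastasis, a library outside the comparison of the tumor groups, was at least 4-fold above the highest EMT6-P tumor. Retnla stood at 50.5 CPM and Chil3 at 393.6 CPM there, while no EMT6-P tumor exceeded 0 counts of Retnla or 1.80 CPM of Chil3. Groups of 3 tumors were too small to be searched for outlying samples.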

How the results depend on the processing

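No member was called under any alternative, and the count of genes called was 0 in each direction under all alternatives except DESeq2, which called 138 genes higher and 143 lower in EMT6-PTR. Under the alternatives that kept all 6 tumors, the log2 fold change of Mgl2 lay between -2.04 and -1.57 and that of Cd163 between 0.88 and 1.56, and the only change of sign was that of Adgre1, at -0.028 with limma-voom. When 1 tumor was left out, the value crossed 0 for 6 members. It ran from -0.097 (EMT6-PTR replicate 2 left out) to 0.61 for Adgre1, from -0.088 (EMT6-PTR replicate 2 left out) to 0.15 for Cd68, which was also -0.045 in the absence of EMT6-P replicate 3, from -0.15 (EMT6-PTR replicate 3 left out) to 1.98 for Cd163, from -0.87 to 0.093 (EMT6-PTR replicate 3 left out) for Folr2, from -0.18 to 0.015 (EMT6-P replicate 1 left out) for Trem2 and from -1.87 to 0.91 for Chil3, which was above 0 in the absence of EMT6-P replicate 1 or of EMT6-PTR replicate 1 or 2. Ratios to the reference that did not overlap numbered 1 with Csf1r as reference and from 2 to 6 with 1 tumor left out, and members at least 4-fold from the EMT6-PTR mean in the metastasis numbered from 2 to 4, the high values in both being those without EMT6-PTR replicate 3. For the metastasis, the share of all genes was not computed without that tumor. For the ratios, that share was computed only with Adgre1 as reference, over all 6 tumors and without EMT6-PTR replicate 3. All other values kept their direction and their side of the threshold or moved by less than 1 SD, except the metastasis difference of Retnla, 8.71 with a prior count of 2 and 10.01 with 0.5. Some values that moved by less than 1 SD did change sign when 1 tumor was left out. They included the group differences in log2 ratio to Adgre1 of Cd68, Mrc1, Cd163, Trem2, Apoe and Chil3. Those of Mgl2 and Folr2 stayed below 0. The deviations of tumors that share a number correlated at 0.26, 0.25 and 0.039, so that the numbers were not taken to pair the tumors, and EMT6-P replicate 3 correlated best with EMT6-PTR replicate 1. With the replicate block 0 genes were called. Chil3 gave no value under the minimum of 10 counts in each sample and no adjusted p-value with DESeq2. Retnla could be tested only without a filter or with the metastasis as a group. Retnla, Chil3 and Cd163 rest on few counts in the primary tumors, which limits what can be said of them there.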
